A study of Mus musculus with 6 samples.

Results

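Type I interferon response genes are the genes that cells switch on when interferon alpha or beta reaches its receptor. Their messenger RNA levels were followed here in CD4+ T cells sorted from mouse liver, in a list of 29 genes matched by name to the rows of a count table with 23505 genes. Of the 29, 27 had a row, and all 27 had enough counts to be tested among 10509 tested genes. Mx1 and Mx2 were not analysed here; the RefSeq gene table of GRCm38.p6 lists both as transcribed pseudogenes. The list was drawn up by gene name, at a time when earlier results of these data were known.

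The 6 libraries came from wild-type mice, and every mouse had received ConA, short for concanavalin A, a lectin of the jack bean used to activate T cells and to injure the liver. The 3 ConA+SIM samples were from mice gavaged with simvastatin, a statin that blocks cholesterol synthesis, at 30 mg/kg, and the 3 ConA samples from mice gavaged with phosphate-buffered saline. Gavage was given daily before ConA, by the most direct reading of the labels over 5 days, and again 1 h before and 24 h after it. The sources used here do not give strain, age, sex, the time of harvest or the number of animals behind a sample. The p-values therefore measure only how far these samples spread, and that spread may be technical. The sort kept cells positive for CD3 and CD4 and negative for CD8 and NK1.1.

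Interferon alpha and beta bind the receptor chains IFNAR1 and IFNAR2, whose kinases JAK1 and TYK2 phosphorylate STAT2. Together with IRF9 it is part of a factor that binds the interferon-stimulated response element, a short sequence in the promoters of the induced genes. The products sense foreign nucleic acid, block viral replication, or feed back on the signal. In T cells this response modulates activation, survival and migration.

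Total counts were 17549429 to 20441213 per ConA+SIM library and 18360352 to 25031862 per ConA library. ConA+SIM replicate 2 stood apart, with 0 counts for 18.4% of the tested genes, while in the other libraries 2.76% to 9.98% were at 0. T cell markers summed to 3143 to 3177 CPM (counts of a gene relative to the scaled library total) in ConA+SIM and 1855 to 3014 CPM in ConA, and Cd4 alone stood at 441 to 562 CPM in ConA+SIM and 485 to 766 CPM in ConA. Of the genes the sort selected against, Cd8a reached at most 10.3 CPM in ConA+SIM and 15.9 CPM in ConA, and Cd8b1 stood at 21.8 to 54.1 CPM in ConA+SIM and 4.64 to 33.1 CPM in ConA. Klrb1c, which encodes NK1.1, stood at 39.0 to 43.5 CPM in ConA+SIM and at 6.69 to 19.98 CPM in ConA, while the NK cell marker Ncr1 had 0 counts in all libraries. The whole list of NK cell and ILC1 markers summed to 499 to 510 CPM in ConA+SIM and 175 to 396 CPM in ConA, with 6 of 7 tested genes positive. Neutrophil markers summed to 618 to 971 CPM in ConA+SIM and 313 to 585 CPM in ConA. Of the 7 tested, 5 had negative fold changes, and the 2 positive ones were S100a8 and S100a9. Ly6g had 0 counts in all libraries. Erythroid and platelet markers summed to 229 to 343 CPM in ConA+SIM and 44.3 to 115 CPM in ConA. B cell and plasma cell markers summed to 565 to 1016 CPM in ConA+SIM and 127 to 1469 CPM in ConA. Of their tested genes, 4 of 7 had positive fold changes. Sinusoidal endothelium markers summed to 414 to 876 CPM in ConA+SIM and 412 to 2393 CPM in ConA, with 11 of 12 tested genes negative. In ConA replicate 2 the endothelial sum, 2393 CPM, lay above the T cell sum, 1855 CPM. Hepatocyte markers summed to 148 to 233 CPM in ConA+SIM and 93.6 to 205 CPM in ConA, with 5 of 6 tested genes positive. The part of other cell types in the values below was not tested, and in such bulk samples fewer cells of a type and less RNA per cell cannot be told apart.

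Ifi27l2a, a short interferon-inducible gene of the ISG12 family, was the 1 gene of the 27 that rose in ConA+SIM, and none fell, at an adjusted p under 0.05 in edgeR's quasi-likelihood test. Of all tested genes, 0.542% rose and 0.0% fell by the same rule. At an unadjusted p under 0.05 there were 2 of the 27, Ifi27l2a and Bst2, where 8.85% of all tested genes reached that level. Fold changes were positive for 17 of the 27 and negative for 10, with a median log2 fold change of 0.35, against -0.041 over all tested genes. In 5 genes, Ifi27l2a, Bst2, Ifit1, Ifit3 and Ifit3b, all ConA+SIM values lay above all ConA values, 18.5% of the 27 where 9.18% of all tested genes did so. In 0 of the 27 did all ConA+SIM values lie below, against 8.57% of all tested genes.

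A stretch of promoter is shown for the 9 genes that hold the letters of the response element before a transcription start. The windows are those of RefSeq on GRCm38.p6, 250 bases before to 50 bases after a transcription start, and 21 of the 29 genes had such a window. The motif searched was GAAANNGAAA, or TTTCNNTTTC as it reads on the other strand, and overlapping matches were counted. It was present for 11 of the 21 genes (52.4%) and for 3.99% of all 27025 genes with a window. In Ddx58 and Ifih1 it lay after the start, and these stretches are not printed. Capitals mark the motif, and each stretch is written 5′ to 3′ on the strand of its gene. The stretches are chr19:34640765-34640833 for Ifit1, chr19:34583353-34583436 for Ifit3 and chr19:34607749-34607832 for Ifit3b, all on the plus strand, as is chr10:128270256-128270305 for Stat2. On the minus strand are chr4:156200855-156200916 for Isg15, chr5:120907510-120907565 for Oas1a, chr8:71537567-71537622 for Bst2, chr5:120777705-120777754 for Oas3 and chr12:26456543-26456592 for Rsad2. The gene spans of Ifit3 and Ifit3b begin at 34583119 and 34607530, so their stretches lie inside these spans, before a start further downstream. The stretch of Oas1a reaches into its gene span, which ends at 120907544. Oas2, Mx1, Mx2, Usp18, Ifi204, Ifi27l2a, Rtp4 and Zbp1 had no entry.
Ifit1: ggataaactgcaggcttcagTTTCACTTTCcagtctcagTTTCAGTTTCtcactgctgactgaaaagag
Ifit3: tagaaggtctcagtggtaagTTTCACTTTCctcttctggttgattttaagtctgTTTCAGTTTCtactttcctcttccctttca
Ifit3b: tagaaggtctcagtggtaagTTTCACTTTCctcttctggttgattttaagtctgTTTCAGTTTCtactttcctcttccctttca
Isg15: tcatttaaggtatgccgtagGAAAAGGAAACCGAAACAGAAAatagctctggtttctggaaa
Oas1a: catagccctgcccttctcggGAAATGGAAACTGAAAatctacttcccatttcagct
Bst2: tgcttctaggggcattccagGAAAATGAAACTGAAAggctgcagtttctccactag
Oas3: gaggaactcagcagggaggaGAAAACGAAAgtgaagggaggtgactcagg
Rsad2: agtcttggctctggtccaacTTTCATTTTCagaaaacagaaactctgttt
Stat2: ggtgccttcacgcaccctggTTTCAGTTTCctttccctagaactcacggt

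The stretches of Ifit3 and Ifit3b were identical over 84 bases, and their windows, aligned without gaps, at 201 of 268 bases (75.0%). Ifit1, Ifit3 and Ifit3b held 2 copies of the motif each, with the same letters, TTTCACTTTC and TTTCAGTTTC. The letters TTTCAGTTTC, or GAAACTGAAA on the other strand, were present for 6 of the 21 genes (Bst2, Ifit1, Ifit3, Ifit3b, Oas1a and Stat2) and for 0.263% of all genes with a window. These 6 included all 4 of the genes with a window whose ConA+SIM values all lay above the ConA values. The letters TTTCACTTTC were present for 3 of the 21 genes (Ifit1, Ifit3 and Ifit3b) and for 0.303% of all genes with a window. They thus covered 3 of those 4 genes and not Bst2. These full sets of letters were taken from the Ifit1 window after the values had been seen, and Ifit1 is 1 of those 4. Ifit3 and Ifit3b share their stretch, so the match was partly built in and is not a test. Stat2, with the letters TTTCAGTTTC, and Oas3, Rsad2 and Ddx58, with the general motif, had negative fold changes. Among the 11 genes with the general motif the median log2 fold change was 1.06, with 7 positive and 4 negative, and among the 10 without it 0.17, with 5 positive and 5 negative. The 1.06 is the value of Bst2, none of the 21 genes passed, and the difference between these medians was not tested. Over all tested genes with a window the medians were 0.043 with and -0.043 without the motif. A match of letters does not show binding, and a window without the letters says nothing about a factor.

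Ifi27l2a (chromosome 12, 103433873 to 103443680, GRCm38) stood at 517, 493 and 531 CPM in ConA+SIM replicates 1 to 3, and at 215, 172 and 207 CPM in ConA replicates 1 to 3. All ConA+SIM libraries were high and close together, and the groups did not overlap. The mean was 514 ± 19.2 CPM in ConA+SIM and 198 ± 22.7 CPM in ConA (SD, n = 3 each), which gave a log2 difference of 1.38 ± 0.20 (SE) at an adjusted p of 0.0321. DESeq2, which called 7.42% of the 4800 genes it gave an adjusted p higher and 4.15% lower, gave 1.37 (adjusted p = 8.82e-11) and limma-voom 1.38 (adjusted p = 0.00184). Leaving out any of the 6 libraries ended the call, with adjusted p from 0.0847 to 0.257 and log2 fold changes from 1.27 to 1.43.

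The transcript of Ifi27l2a is 463 nt long, the shortest of the 27. Fold changes moved with transcript length across the libraries as a whole: the median log2 fold change was 0.63 over 530 tested genes shorter than 1000 nt, 0.20 from there to 2000 nt, -0.044 from 2000 to 4000 nt, and -0.27 in longer genes. All ConA+SIM values lay above all ConA values in 29.6% of the genes shorter than 1000 nt and in 4.65% of those of 4000 nt or more. Positive fold changes were found in 3 of 3 members shorter than 1000 nt and in 6 of 6 from there to 2000 nt. Between 2000 and 4000 nt it was 7 of 14, and in longer genes 1 of 4. The share of positive fold changes over all tested genes was not counted by length. These counts can therefore be set only beside the medians above, which were also positive below 2000 nt. With each library's trend with length removed, the log2 fold change of Ifi27l2a was 0.30 ± 0.23 (SE, adjusted p = 0.999), and 0.38 ± 0.23 with GC content removed as well. Bst2 and Isg15, the other members shorter than 1000 nt, had 0.30 and 1.10 after the length correction, against 1.06 and 1.72 before it. What sets the trend with length was not tested.

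**Figure D1:**
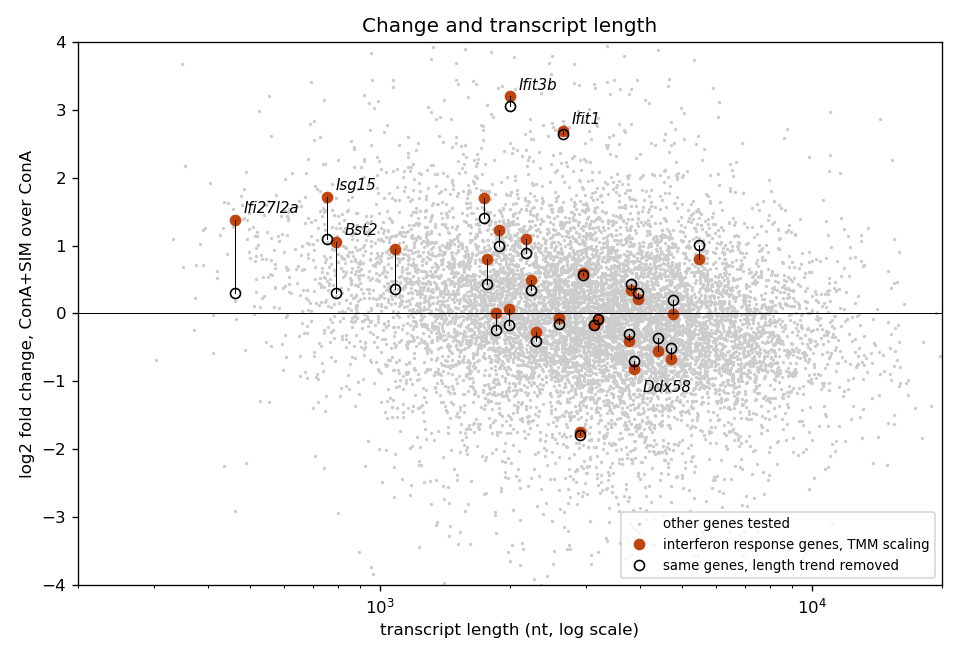
Log2 fold change of ConA+SIM over ConA (vertical axis) against transcript length in nt (horizontal axis, log scale) for tested genes (grey) and the 27 interferon response genes with TMM scaling (filled) and with the length trend removed (open), joined by a line for each gene. Ifi27l2a at 463 nt stands at 1.38 with TMM scaling and at 0.30 with the trend removed, and Ifit1 at 2.69 and 2.65; 127 genes lie outside the axes.

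IFIT1, the founding member of the IFIT family, binds viral RNA that lacks the cap methylation of host messages and hinders its translation. The listed genes of the family lie in a cluster on chromosome 19, between 34550550 and 34650009. Ifit1 stood at 87.8, 240 and 75.2 CPM in ConA+SIM replicates 1 to 3 and at 32.3, 0 and 29.9 CPM in ConA replicates 1 to 3. The groups did not overlap, with ConA+SIM replicate 2 the highest library and no count in ConA replicate 2. For counting error alone, 0 counts there allow up to 0.151 CPM. The log2 fold change was 2.69 ± 1.40 (SE, adjusted p = 0.687), with 1.98 without ConA+SIM replicate 2 and 3.16 without ConA replicate 1.

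Ifit3, whose product works in complex with IFIT1 in human cells, stood at 33.5, 62.1 and 37.8 CPM in ConA+SIM and at 0.0864, 18.8 and 21.9 CPM in ConA. ConA replicate 1 held 2 counts of it, although the same library had the highest level of its neighbour Ifit2. Its near copy Ifit3b stood at 10.7, 19.9 and 7.91 CPM in ConA+SIM and at 0, 0.151 and 4.01 CPM in ConA. The log2 fold changes were 1.71 ± 1.34 for Ifit3 (adjusted p = 0.941) and 3.21 ± 2.78 for Ifit3b (adjusted p = 0.975). With a library left out they ran from 1.12 to 2.23 for Ifit3 and from 2.61 to 7.30 for Ifit3b, whose highest value came without ConA replicate 3. Neither passed, and since the sources used here do not say how reads that match both copies were counted, the split between them is uncertain.

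Ifit2 stood at 136, 142 and 131 CPM in ConA+SIM and at 197, 66.4 and 58.8 CPM in ConA. Here the ConA+SIM libraries lay close together inside the range of the ConA libraries, and the log2 fold change was 0.35 ± 0.46 (adjusted p = 0.999), or 0.040 without ConA replicate 3 and 1.11 without ConA replicate 1. The related gene Ifit1bl1, not among the 29, stood at 86.2, 33.7 and 95.7 CPM in ConA+SIM and at 15.8, 5.04 and 24.2 CPM in ConA. It did not pass either (2.26 ± 0.72, adjusted p = 0.369), though the groups did not overlap and DESeq2 called it (adjusted p = 0.00981).

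**Figure D2:**
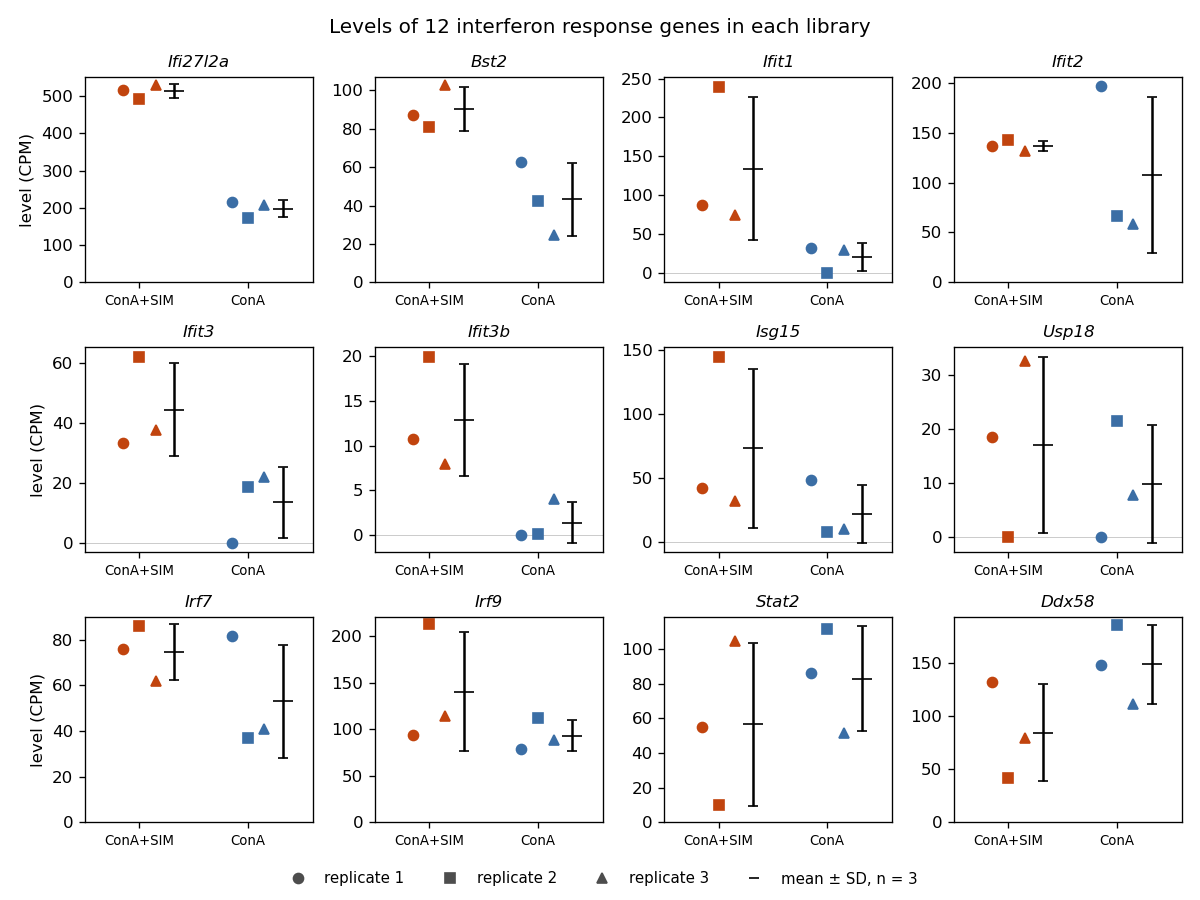
Level in CPM (vertical axis, linear, own scale in each panel) of 12 genes in the ConA+SIM libraries (left in each panel) and the ConA libraries (right). Symbols are replicates and the bar is the mean with SD (n = 3). Ifi27l2a runs from 493 to 531 CPM in ConA+SIM and from 172 to 215 CPM in ConA, whereas Usp18 has libraries at 0 in both groups.

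ISG15 is a ubiquitin-like protein that is joined to other proteins, USP18 removes it and also dampens the interferon receptor, and HERC6 is the mouse ligase that attaches it. Isg15 (chromosome 4, 156199424 to 156200818) stood at 42.4, 145 and 32.6 CPM in ConA+SIM and at 48.3, 7.86 and 10.4 CPM in ConA. The groups overlapped, since ConA replicate 1 lay above ConA+SIM replicates 1 and 3, and the log2 fold change was 1.72 ± 0.86 (adjusted p = 0.657). It was 0.76 without ConA+SIM replicate 2 and 3.00 without ConA replicate 1. Usp18 stood at 18.5, 0 and 32.7 CPM in ConA+SIM and at 0, 21.6 and 7.75 CPM in ConA. Herc6 had no count in ConA+SIM replicate 2, but 78.9 and 80.5 CPM in the other ConA+SIM libraries and 34.4 to 65.3 CPM in ConA. Both had wide errors, 0.80 ± 2.55 for Usp18 and -0.0049 ± 1.45 for Herc6 on the log2 scale (adjusted p = 0.999 each).

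Of the 3 transcription factors of the response, 2 had positive and 1 a negative fold change, and 0 passed. Irf7, the induced factor that amplifies interferon production, stood at 76.0, 86.1 and 61.8 CPM in ConA+SIM and at 81.6, 36.9 and 40.8 CPM in ConA (log2 fold change 0.49 ± 0.45, adjusted p = 0.994). Only ConA replicate 1 among the ConA libraries reached the range of ConA+SIM. Irf9, the DNA-binding part of the complex, stood at 93.4, 214 and 114 CPM in ConA+SIM and at 79.2, 112 and 88.5 CPM in ConA (0.59 ± 0.38, adjusted p = 0.832). Its partner Stat2 stood at 55.0, 10.3 and 105 CPM in ConA+SIM and at 86.0, 112 and 51.3 CPM in ConA (-0.55 ± 0.71, adjusted p = 0.999). In ConA+SIM replicate 2 Irf9 was thus at its highest and Stat2 at its lowest of the 6 libraries.

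Of the nucleic acid sensors, Ddx58, which encodes the RNA sensor RIG-I, stood at 132, 41.3 and 79.6 CPM in ConA+SIM and at 148, 186 and 112 CPM in ConA. The groups overlapped in ConA+SIM replicate 1, and the log2 fold change was -0.82 ± 0.44 (adjusted p = 0.709). Ifih1, the gene of the long RNA sensor MDA5, had 17.7 to 66.2 CPM in ConA+SIM and 13.1 to 47.6 CPM in ConA (0.81 ± 0.80). Zbp1, a sensor of Z-form nucleic acid that can trigger cell death, averaged 113 ± 24.4 CPM in ConA+SIM and 108 ± 15.5 CPM in ConA (SD, n = 3 each), a log2 fold change of 0.061 ± 0.31. Its standard error was the smallest of the 3 sensors.

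**Figure D3:**
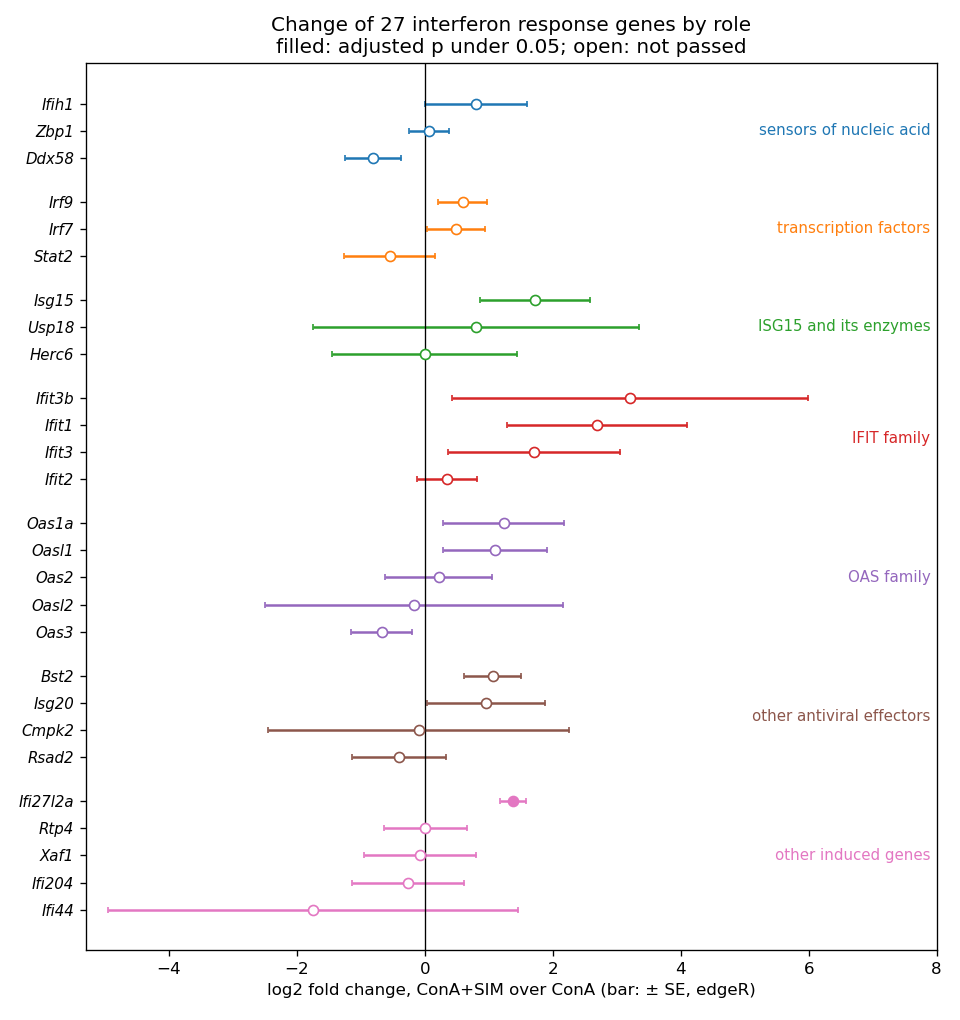
Log2 fold change of ConA+SIM over ConA (horizontal axis, bars ± SE derived from edgeR's F statistic) for the 27 interferon response genes, grouped by role down the page. The filled point passed at an adjusted p under 0.05 and open points did not. Ifi27l2a at 1.38 ± 0.20 is the filled point, and the IFIT family holds 4 positive values from 0.35 to 3.21.

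The oligoadenylate synthetases make a messenger that activates RNase L upon sensing double-stranded RNA. Of this family, 3 had positive and 2 negative fold changes, and 0 of 5 passed. Oas1a averaged 33.6 ± 15.7 CPM in ConA+SIM and 14.3 ± 7.38 CPM in ConA (SD, n = 3 each), a log2 fold change of 1.23 ± 0.95. Oasl1, a member that lacks synthetase activity in mice, averaged 40.2 ± 24.5 CPM in ConA+SIM and 18.9 ± 11.6 CPM in ConA (1.09 ± 0.81). Oas3, in a cluster with Oas2 and Oas1a on chromosome 5, averaged 45.1 ± 19.4 CPM in ConA+SIM and 71.9 ± 18.4 CPM in ConA (-0.67 ± 0.48, adjusted p = 0.891). Oas2 and Oasl2 had log2 fold changes of 0.21 ± 0.84 and -0.17 ± 2.33.

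Among the other antiviral effectors, Bst2 (chromosome 8, 71534255 to 71537472), which encodes tetherin, a membrane protein that holds budding virus at the cell surface, stood at 86.9, 80.7 and 103 CPM in ConA+SIM and at 62.5, 42.5 and 24.6 CPM in ConA. The groups did not overlap, and the log2 fold change of 1.06 ± 0.45 did not pass (adjusted p = 0.534). Bst2 is also a surface marker of plasmacytoid dendritic cells, the main producers of interferon alpha. Of the 6 other tested markers of these cells, 5 had positive fold changes, and the exception, Irf8, had lower values in ConA+SIM (155 to 216 CPM) than in ConA (243 to 345 CPM). The defining marker Siglech stood at 78.3, 144 and 133 CPM in ConA+SIM and at 15.4, 53.1 and 25.6 CPM in ConA. The sum of the dendritic list without Bst2 was 469 to 596 CPM in ConA+SIM and 341 to 596 CPM in ConA, and its part in the Bst2 values was not tested.

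Rsad2 encodes viperin, which makes a chain-terminating nucleotide, and Cmpk2, a mitochondrial nucleotide kinase, is its neighbour on chromosome 12. Rsad2 stood at 27.5, 25.3 and 25.2 CPM in ConA+SIM, within a narrow range, and at 49.9, 39.5 and 13.7 CPM in ConA. Cmpk2 had no count in ConA+SIM replicate 2 and ConA replicate 2, and 17.6 to 31.4 CPM in the other libraries; Rsad2 had counts in all 6. The log2 fold changes were -0.40 ± 0.73 for Rsad2 and -0.096 ± 2.35 for Cmpk2. Isg20, an RNA exonuclease gene, had a log2 fold change of 0.96 ± 0.92.

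Of the remaining induced genes, Rtp4, a chaperone of receptor transport, averaged 35.8 ± 14.8 CPM in ConA+SIM and 35.7 ± 15.9 CPM in ConA (SD, n = 3 each). Xaf1, a promoter of apoptosis, and Ifi204, a DNA-binding member of the p200 family, had log2 fold changes of -0.074 ± 0.88 and -0.27 ± 0.87. Ifi44 had counts in 3 libraries only, at 5.67 CPM in ConA+SIM replicate 3, and at 12.7 and 6.37 CPM in ConA replicates 2 and 3.

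Scaled per transcript length and then to a common sum per library (TPM), Ifi27l2a had the highest level of the 27, with 1956 ± 93.0 TPM in ConA+SIM and 999 ± 84.0 TPM in ConA (SD, n = 3 each). In ConA+SIM the order went on with Bst2 and Isg15. Bst2 had 201 ± 27.8 TPM in ConA+SIM and 129 ± 58.4 TPM in ConA, and Isg15 had 174 ± 153 TPM in ConA+SIM and 68.7 ± 70.5 TPM in ConA, which differed from Bst2 by less than their spread. In ConA the order was another one, with Zbp1 (128 ± 24.6 TPM) level with Bst2, and Ddx58 (90.9 ± 27.6 TPM) and Irf9 (74.4 ± 17.2 TPM) above Isg15 by less than the spread. Ifi44 was lowest in ConA+SIM at 1.16 ± 2.01 TPM, against 5.24 ± 5.44 TPM in ConA. Of the members' summed counts, Ifi27l2a alone made up 24.8% to 28.1% in ConA+SIM libraries and 14.0% to 17.8% in ConA libraries. The sum of the other 26 was 1323, 1498 and 1423 CPM in ConA+SIM replicates 1 to 3 and 1320, 1059 and 953 CPM in ConA replicates 1 to 3.

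**Figure D4:**
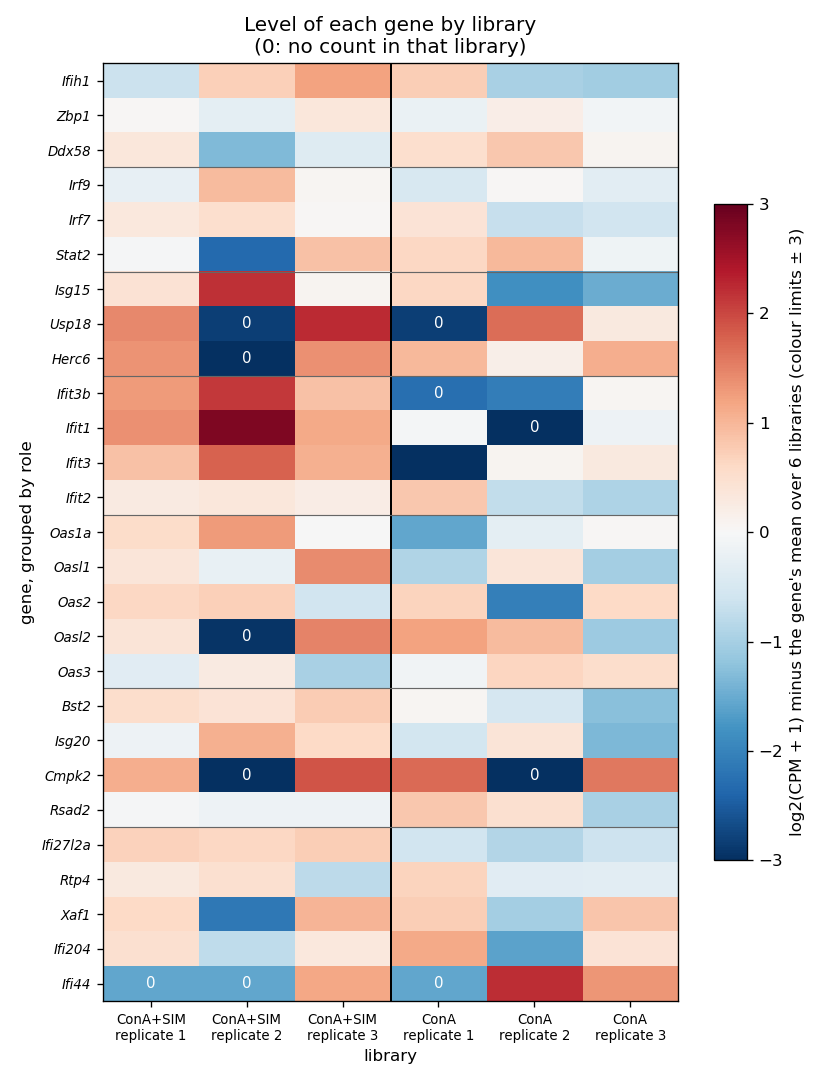
Level of each of the 27 genes (down the page, grouped by role) in each library (across, ConA+SIM left of the line and ConA right), as log2(CPM + 1) minus the gene's mean over the 6 libraries, in colour limited to ± 3, with 0 written where a library had no count. Ifi27l2a keeps the same colour within each group, whereas 7 genes have at least 1 library with no count.

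The library with the highest level was not the same from gene to gene. ConA+SIM replicate 2 held the highest level of 9 of them, including Isg15, Ifit1, Ifit3, Irf7 and Irf9, and the lowest level of 8, including Stat2, Ddx58, Zbp1 and Herc6. The same library was lowest in 32.3% and highest in 18.9% of all tested genes. ConA+SIM replicate 3 held the highest level of 10 of the 27, and ConA+SIM replicate 1 and ConA replicate 3 of 0 each. Over all tested genes, these libraries were highest in 15.2%, 14.6% and 14.8%. In 7 genes (Cmpk2, Herc6, Ifi44, Ifit1, Ifit3b, Oasl2 and Usp18) at least 1 library had no count, 25.9% of the 27, where 29.9% of all tested genes had such a library. Replicates of ConA+SIM differed by 10-fold or more in 7 of the 27 genes (25.9%, against 26.9% of tested genes), and those of ConA in 6 (22.2%, against 23.9%), with a value of 0 set to 3 counts. The median biological coefficient of variation was 0.80 over the 27 and 0.74 over all tested genes.

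Other genes of the pathway, 76 on 4 lists of which 68 were tested, gave 0 that rose and 0 that fell by edgeR. There were 21 positive and 47 negative fold changes and a median log2 fold change of -0.28, where 48.0% of all tested genes were positive. Transcript length was not taken into account in these counts. All ConA+SIM values lay below all ConA values in 11 of the 68 (16.2%, against 8.57% of all tested genes), and above in 3 (4.41%, against 9.18%). At an unadjusted p under 0.05 there were 11 (8.85% of all tested genes reached that level), of which 9 had negative and 2 positive fold changes. DESeq2 gave an adjusted p to 47 of the 68 and called 6 of them, Irf5, Ptpn6, Adar and Rnf213 lower (8.51%, against 4.15% of all genes it gave one) and Ifit1bl1 and Ly6a higher (4.26%, against 7.42%).

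Of the interferons, the receptor and its kinases, 6 of 10 genes were tested, all with negative fold changes, and 0 passed. Ifnar1 averaged 226 ± 77.8 CPM in ConA+SIM and 269 ± 68.2 CPM in ConA, and Ifnar2 averaged 102 ± 12.8 CPM in ConA+SIM and 105 ± 26.7 CPM in ConA (SD, n = 3 each). The interferon genes themselves had counts in some libraries and 0 in others. Ifnb1, the gene of interferon beta, had 144, 0 and 121 counts in ConA+SIM and 542, 0 and 246 counts in ConA. Ifna2 had 386 counts in ConA+SIM replicate 2 and 0 in every other library, Ifna5 305 counts in ConA replicate 1 alone, Ifna1 106 counts in ConA replicate 3 alone, and Ifna4 had none. The interferon alpha genes are close copies of each other, so these counts are uncertain.

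Among inducers of interferon, Irf5, a factor of macrophages and B cells, averaged 37.3 ± 18.9 CPM in ConA+SIM and 112 ± 34.5 CPM in ConA (-1.59 ± 0.49, adjusted p = 0.34). Irf8, a factor of myeloid and plasmacytoid dendritic cells, averaged 187 ± 30.7 CPM in ConA+SIM and 287 ± 52.1 CPM in ConA (-0.62 ± 0.25, adjusted p = 0.496). Irf1, a factor induced mainly by interferon gamma, stood at 351, 591 and 303 CPM in ConA+SIM and at 290, 238 and 289 CPM in ConA, without overlap (0.61 ± 0.28, adjusted p = 0.589). The endosomal RNA receptor gene Tlr3 had no count in ConA+SIM and 3.46, 13.6 and 10.6 CPM in ConA, and did not pass (adjusted p = 0.4). With 3 counts over the group as the floor, its pooled level was at least 165-fold lower in ConA+SIM for counting error alone. That floor leaves out the spread between samples. The biological coefficient of variation of Tlr3 was 1.77, against a median of 0.74 over all tested genes. Kupffer cell, macrophage and monocyte markers had negative fold changes in 9 of 12 tested genes, with a summed level of 1040 to 2568 CPM in ConA+SIM and 1553 to 3224 CPM in ConA. Sinusoidal endothelium markers had negative fold changes in 11 of 12 tested genes, and B cell and plasma cell markers in 3 of 7. The part of these cell types in the Irf5, Irf8 and Tlr3 values was not tested.

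The negative regulators Ptpn6, the phosphatase SHP-1, and Adar, an RNA-editing enzyme, averaged 168 ± 63.2 and 61.1 ± 52.8 CPM in ConA+SIM, against 391 ± 118 and 168 ± 36.3 CPM in ConA (SD, n = 3 each). Their log2 fold changes were -1.22 ± 0.34 (adjusted p = 0.27) and -1.46 ± 0.64 (adjusted p = 0.563). Of the other interferon-induced genes, Ly6a, which encodes the surface antigen Sca-1, stood at 721, 441 and 791 CPM in ConA+SIM and at 431, 310 and 311 CPM in ConA (0.89 ± 0.26, adjusted p = 0.316). The giant ubiquitin ligase gene Rnf213 averaged 147 ± 54.3 CPM in ConA+SIM and 291 ± 53.7 CPM in ConA (-0.98 ± 0.31, adjusted p = 0.356). Ifitm2, whose product hinders viral entry, Ly6e, a surface antigen of the Ly6 family, and Pml, the scaffold of a nuclear body, had log2 fold changes of -0.93 ± 0.39, -0.45 ± 0.18 and -0.91 ± 0.40 (adjusted p = 0.522, 0.516 and 0.563). With the length trend removed Ifitm2, a transcript of 655 nt, stood at -1.81, Ly6a at 0.23 and Rnf213 at -0.46.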

How the data were processed

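RNA sequencing was done on 6 libraries of sorted liver CD4+ T cells. Reads were handled with HISAT2 2.1.0 on the build GRCm38, per the submitters' processing notes. The sources used here do not name the counting tool, annotation, strand setting or handling of reads with several matches. What the authors deposited is a count table with a raw, whole-number count for each gene and a column for each sample. The RefSeq table of GRCm38.p6 matched all 23505 rows after numbered suffixes were dropped.

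From the counts, genes were kept with filterByExpr of edgeR 4.0.16 in R 4.3.3 (10509 kept), scaled with TMM factors and tested with the robust quasi-likelihood F test, for ConA+SIM over ConA with no covariate. The Benjamini-Hochberg adjustment ran over all tested genes, with a threshold of 0.05. The SE of an edgeR fold change was derived as the absolute log2 fold change divided by the square root of the F statistic. CPM is relative to the TMM-scaled total, and a count of 0 allows up to 3 (95% confidence, 0.118 to 0.175 CPM, for counting error alone). TPM used 1 transcript per gene, the longest coding one in GENCODE release M21, and 99.5% of tested genes had a length. On simulated data for ConA+SIM over ConA with 9828 genes, 14.1% of genes changed 4-fold and 0% of those changed 2-fold were called, and 2 unchanged genes were called.

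Earlier results of these data were known when the members, the lists, the tests and the naming rule were chosen. Values in every library are given for members past the threshold, at an unadjusted p under 0.05 or with groups that do not overlap, for the 5 with the smallest p and for 7 fixed genes, of which Mx1 was not analysed; other genes with values in every library, the interferon genes and Siglech among them, were chosen after their values were seen. Pathway genes named are those at an unadjusted p under 0.05 and 4 fixed ones, of which 1 is not reported here. Alternatives were RLE scaling, other filters, DESeq2 1.42.0, limma-voom (limma 3.58.1) with and without quality weights, the replicate number as a block, length and GC offsets (smooth trends from mgcv 1.9.3), ribosomal protein genes left out, copied rows summed, and each library left out.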

Additional observations from a re-analysis of the deposited data

How the results depend on the processing

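Over the 17 alternatives the members' median log2 fold change stayed between 0.17 and 0.56, and 17 of the 27 members kept their sign in all of them. The count of genes called, 57, was 555 with DESeq2, 128 with limma-voom, 137 with its quality weights, 0 with length offsets, with length and GC offsets and with ribosomal protein genes left out, and 0 to 3 with a library left out. The count of members called was 0 under those last 4. The log2 fold change of Ifi27l2a was then 0.30, 0.38, 1.39 (adjusted p = 0.124) and 1.27 to 1.43, and it was called in 7 of the 17. With the replicate number as a block, 0 genes and 0 members were called and Ifi27l2a stood at 1.38 (adjusted p = 0.285); deviations of same-numbered samples correlated at 0.0111, 0.00878 and 0.0328 across genes, and not every sample correlated best with its own number, so the numbers were not taken to pair the samples. The cause of the sign changes was not tested. Rtp4 stood at -0.0012 (RLE), -0.00088 (5 CPM filter), -0.0013 (DESeq2), -0.036 (voom), -0.096 (quality weights), -0.019 (replicate block), -0.24 (length) and -0.29 (length and GC). With quality weights Oasl2 had 0.073, Rsad2 0.087, Ifi204 0.13, Xaf1 0.11 and Cmpk2 1.34. Ifi204 had 0.044 with the replicate block. Zbp1 had -0.17 with length and -0.0032 with length and GC, Herc6 0.20 with length and 0.0067 without ribosomal protein genes, and Cmpk2 and Ifnar2 0.042 each with length and GC. With a library left out, the ranges were -0.99 to 0.49 for Cmpk2, -0.43 to 0.58 for Herc6, -0.75 to 0.37 for Ifi204, -0.18 to 0.17 for Ifnar2, -0.29 to 0.56 for Oas2, -1.29 to 0.42 for Oasl2, -0.24 to 0.42 for Rtp4, -0.081 to 2.12 for Usp18, -0.62 to 0.43 for Xaf1 and -0.11 to 0.21 for Zbp1. Counting error alone allows 0.118 to 0.175 CPM at 0 counts. A 0 need not mean a level that low in the cells. Herc6 had no count in ConA+SIM replicate 2, but 78.9 and 80.5 CPM in the other ConA+SIM libraries.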
